A study of Mus musculus with 12 samples.

Results

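The genes described here are 8 that mark or switch on the T helper 1 (Th1) programme. They are *Tbx21*, *Eomes*, and *Hopx*, which encode nuclear factors, *Ifng*, which encodes interferon gamma, and the receptor genes *Il12rb1*, *Il12rb2*, *Il18r1*, and *Il18rap*. They were chosen by symbol from the 26608 genes listed in every count table, and all 8 were among the 16035 genes with enough reads to be tested. The cells sequenced were CD4+ YFP(FOXP3)- T cells, taken by sorting from the spleen and the cervical and inguinal lymph nodes of mice aged 14 weeks, with the organs of a mouse pooled. The groups were WT mice, which carry *Foxp3Cre* with intact *Tet2* and *Tet3*, and mice of the genotype *Foxp3-Cre Tet2/3 fl/fl*, in which Cre deletes both genes for these 5-methylcytosine oxidases. The latter were called DKO-moderate or DKO-severe by the total number of their splenocytes and peripheral lymphocytes, and each group had 4 libraries, 1 from each mouse.

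All 3 groups carry the YFP and Cre knock-in at *Foxp3*. Cre is made in cells that express *Foxp3*, so among the sorted YFP- cells it is former regulatory T cells that have lost both genes, and the CD4+ cells that never expressed *Foxp3* keep them. The study describes this Cre as leaky. The shares of both kinds of cell in the DKO libraries are not known from these counts. In bulk RNA, fewer cells of a type and less RNA per cell cannot be told apart.

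Interleukin 12 binds a receptor built from IL-12Rβ1 and IL-12Rβ2 and signals through STAT4. This signal and interferon gamma turn on T-bet, the product of *Tbx21*, which drives transcription of *Ifng* and of *Il12rb2*. Interleukin 18 binds IL-18Rα, the product of *Il18r1*, and signals once the accessory chain encoded by *Il18rap* joins it. Eomesodermin is a T-box factor related to T-bet and is best known from cytotoxic lymphocytes. HOPX is a small homeodomain protein without its own DNA contacts that accumulates in repeatedly stimulated Th1 cells.

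The 2 interleukin 18 receptor genes are neighbours on the same strand. In GRCm38 coordinates *Il18r1* lies at chr1:40465552-40500854 and *Il18rap* at chr1:40515362-40551705, with 14507 bases between them. *Il12rb1* is at chr8:70808449-70821424 and *Il12rb2* at chr6:67291318-67376188. *Tbx21* is at chr11:97098071-97115331, *Eomes* at chr9:118478212-118486132, *Hopx* at chr5:77086988-77115121, and *Ifng* at chr10:118441046-118445892. These spans are from GENCODE M21 and cover the whole gene, exons and introns.

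The 250 bases before the start site are shown for 4 of the genes. *Il18r1* and *Il18rap* are shown because they are neighbours whose ratio of reads was lower in every DKO library than in any WT library, *Il12rb2* because T-bet is known to act on it, and *Ifng* because it is the product of the programme. The sequences are from RefSeq (GRCm38.p6), run 5′ to 3′ on the strand of the gene, and end at the base before the start site. Capitals mark matches to a T-box core, GTGTGA, or to a STAT motif, TTCNNNGAA, each searched on both strands. Of 32851 windows of this length before mouse gene starts, a set that did not cover every chromosome, 12.3% held the T-box core and 7.02% the STAT motif.
*Il18r1*, chr1:40465302-40465551, plus strand: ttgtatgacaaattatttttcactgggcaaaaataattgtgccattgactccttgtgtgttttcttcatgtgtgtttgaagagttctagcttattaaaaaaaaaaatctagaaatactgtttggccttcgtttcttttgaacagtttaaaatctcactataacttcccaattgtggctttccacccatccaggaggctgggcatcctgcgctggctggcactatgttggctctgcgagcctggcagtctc
*Il18rap*, chr1:40515112-40515361, plus strand: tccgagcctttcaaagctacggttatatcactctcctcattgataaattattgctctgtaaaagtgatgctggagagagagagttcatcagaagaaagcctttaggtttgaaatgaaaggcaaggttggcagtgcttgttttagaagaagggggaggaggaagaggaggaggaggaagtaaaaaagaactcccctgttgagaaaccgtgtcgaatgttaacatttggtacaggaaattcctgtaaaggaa
*Il12rb2*, chr6:67376189-67376438, minus strand: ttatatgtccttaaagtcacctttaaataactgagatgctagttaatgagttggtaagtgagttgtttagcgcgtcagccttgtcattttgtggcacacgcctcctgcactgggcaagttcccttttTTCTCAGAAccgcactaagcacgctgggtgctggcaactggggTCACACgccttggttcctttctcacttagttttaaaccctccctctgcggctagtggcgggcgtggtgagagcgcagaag
*Ifng*, chr10:118440796-118441045, plus strand: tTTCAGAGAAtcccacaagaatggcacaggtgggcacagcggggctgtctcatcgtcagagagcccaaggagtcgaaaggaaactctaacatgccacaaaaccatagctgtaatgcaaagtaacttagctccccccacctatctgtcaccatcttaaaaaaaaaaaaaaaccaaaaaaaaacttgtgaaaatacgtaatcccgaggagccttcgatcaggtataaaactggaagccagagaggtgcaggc

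In the *Il12rb2* window the T-box core began 80 bases before the start and the STAT motif 123 bases before it, and the 2 did not overlap. The *Ifng* window held a STAT motif 249 bases before the start. Neither set of letters occurred in the *Il18rap* window or in the window of the first of the 3 listed *Il18r1* starts. At the third *Il18r1* start, STAT motifs began 219 and 152 bases upstream. RefSeq windows were found for 7 of the 8 genes, 10 windows in all. Among them only that of *Il12rb2* held the T-box core, and none held an AP-1 motif (TGANTCA, in 6.75% of all windows) or a RUNX motif (TGTGGT, in 14% of all windows). A match of letters is a description and is not evidence of binding.

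Libraries held 29254260 to 42133536 reads on genes. Levels are given as counts relative to a library's total (CPM) after TMM scaling, and changes as log2 fold changes with their standard error (SE) from a quasi-likelihood fit of all 12 libraries in edgeR, with p-values adjusted over the 16035 tested genes and a threshold of 0.05. The labelled cell type was visible in every library, with *Cd4* between 864.0 and 1368 CPM and *Cd3e* between 353.5 and 517.2 CPM. *Foxp3* was at most 3.10 CPM. *Tet2* was 43.3 to 62.2 CPM in WT, 34.8 to 57.8 CPM in DKO-moderate, and 56.7 to 65.8 CPM in DKO-severe, and *Tet3* was 167.4 to 210.4 CPM, 90.3 to 184.7 CPM, and 87.8 to 102.5 CPM. Reads were counted over the whole gene, so these levels do not check the deletion. The 4 Y-linked genes summed to at most 0.571 CPM in WT 2, DKO-moderate 2 and 4, and DKO-severe 3. In the other libraries they summed to 369.8 to 555.8 CPM. A list of 5 naive T cell genes summed to 3433 to 3932 CPM in WT, 1941 to 3091 CPM in DKO-moderate, and 1143 to 1658 CPM in DKO-severe libraries, and its part in the results below was not tested. WT 3, DKO-severe 1, and DKO-severe 2 carried the most RNA of the B cell and monocyte lists. The 6 B cell genes summed to 196.7, 91.5, and 356.6 CPM in them against 6.81 to 47.2 CPM in the other libraries. The 8 neutrophil genes summed to 2045, 751.3, 21.3, and 8.76 CPM in DKO-severe 1 to 4 and to at most 3.50 CPM in WT and DKO-moderate. All 8 were called higher in DKO-severe than in either other group. The 6 monocyte and macrophage genes summed to 1.49 to 5.65 CPM in the WT libraries other than WT 3, which had 167.8 CPM, 6.33 to 41.1 CPM in DKO-moderate, and 50.9 to 341.3 CPM in DKO-severe. The 4 plasma cell genes summed to 49.1 to 146.0 CPM in WT, 75.7 to 125.1 CPM in DKO-moderate, and 188.6 to 350.9 CPM in DKO-severe, so that every DKO-severe library was above all others. The part of these cells in the results below was not tested beyond the fits named there. A term for neutrophil genes overlaps with the DKO-severe group, so a call lost with it cannot be told apart from lost precision. The 8 genes of natural killer (NK) cells and group 1 innate lymphoid cells summed to 48.2 CPM in DKO-severe 1, 42.2 CPM in DKO-severe 2, 22.8 CPM in WT 3, and 2.21 to 14.996 CPM in the rest. Most of the sum in these 3 libraries was *Tyrobp* (22.3, 18.7, and 10.1 CPM) and *Fcer1g* (14.6, 13.9, and 7.10 CPM). Other genes of the list did not follow: *Klre1* in them lay within the range of the rest, and *Klra8* was at most 0.0714 CPM in DKO-severe. *Ncr1*, which defines NK cells, was at 6.07 CPM in DKO-severe 1 and at most 1.01 CPM in every other library. *Cd8a* reached 6.47 CPM in WT 3, 3.15 CPM in DKO-severe 1, and 7.002 CPM in DKO-severe 2 and was at most 0.273 CPM in the other 9. *Cd8b1*, the other gene of the CD8 T cell list, was highest in WT, at 16.6 to 20.3 CPM. It was 3.05 to 8.42 CPM in DKO-moderate and 1.005 to 6.15 CPM in DKO-severe. Of 4 gamma delta T cell genes *Sox13* alone was matched, at up to 1.30 CPM. The 3 NKT cell genes summed to 223.0 to 291.1 CPM in WT and 433.2 to 675.2 CPM in the DKO libraries, most of it *Slamf6*. *Cd1d1* of the same list went the other way. It was 47.42 to 57.12 CPM in WT, 35.58 to 47.15 CPM in DKO-moderate, and 16.45 to 26.58 CPM in DKO-severe. The defining factor *Zbtb16* was between 3.50 and 12.3 CPM, so the sum does not stand for the list.

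The changes past the threshold were in the receptor genes *Il12rb1*, *Il12rb2*, and *Il18rap* and in *Hopx*. Relative to WT, 3 of the 8 genes were past the threshold in DKO-severe cells, all higher: *Il12rb1*, *Il12rb2*, and *Il18rap*. Over all tested genes 52.6% passed in that comparison and 26.6% were higher, against which 37.5% of the 8 is not a result about these genes. In DKO-moderate cells *Il12rb1*, *Il18rap*, and *Hopx* passed, again all higher, where 17.1% of all genes passed and 12.3% were higher. Between DKO-severe and DKO-moderate only *Hopx* passed, and was lower in DKO-severe, with 20.1% of all genes past the threshold and 10.7% lower. The median log2 fold change of the 8 genes was 0.65 for DKO-severe and 0.70 for DKO-moderate against WT, and -0.12 between the DKO groups, where the medians of all tested genes were -0.01, 0.00, and -0.03. The 2 comparisons with WT share the WT libraries and are not independent of each other.

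**Figure D1:**
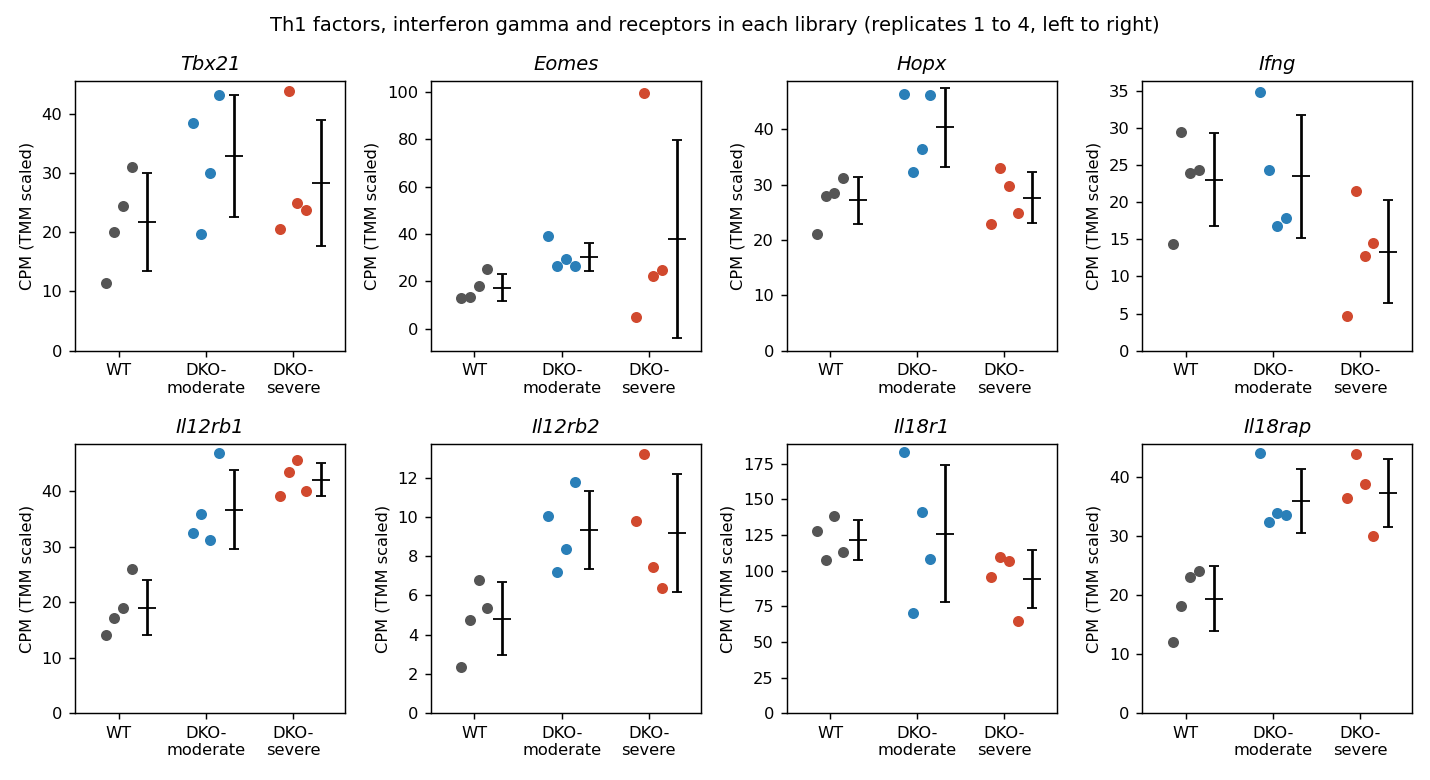
CPM (TMM scaled, linear axis) of the 8 genes in each library, 1 panel a gene, with WT, DKO-moderate, and DKO-severe side by side and replicates 1 to 4 from left to right; black dashes with bars are the mean and SD of 4 libraries. The DKO libraries of *Il12rb1* and *Il18rap* all sit above the WT libraries, and DKO-severe 2 stands at 99.4 CPM for *Eomes*.

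*Il12rb1* encodes the IL-12 receptor chain that the IL-23 receptor also uses. Its levels were 14.1, 17.1, 18.9, and 25.9 CPM in the WT libraries, 32.5, 35.8, 31.2, and 46.8 CPM in DKO-moderate, and 39.2, 43.3, 45.5, and 39.9 CPM in DKO-severe. Every DKO library was above every WT library, and the DKO-severe libraries lay close together. The mean rose from 19.0 ± 5.01 CPM (SD, n = 4) in WT to 42.0 ± 2.96 CPM in DKO-severe, by 1.14 on the log2 scale (SE 0.18, adjusted p = 0.000241). In DKO-moderate the mean was 36.6 ± 7.10 CPM and the log2 fold change 0.94 (SE 0.18, adjusted p = 0.004). DKO-severe and DKO-moderate differed by a log2 fold change of 0.20 with a 95% interval of -0.18 to 0.58, which does not settle whether their levels are alike. Without the 3 libraries that carried the most RNA of other cells, the log2 fold changes to WT were 1.17 and 0.94.

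*Il12rb2* encodes the signalling chain that commits a T cell to answer IL-12, and had the lowest mean of the 8 genes per kilobase of exon in every group, with 82 to 445 reads a library. Its levels were 2.36, 4.78, 6.79, and 5.36 CPM in WT, 10.02, 7.22, 8.35, and 11.8 CPM in DKO-moderate, and 9.77, 13.2, 7.45, and 6.37 CPM in DKO-severe. All DKO-moderate libraries were above all WT libraries, while DKO-severe 4 lay below WT 3. The log2 fold change to WT was 0.93 (SE 0.32, adjusted p = 0.0262) in DKO-severe and 0.96 (SE 0.32, adjusted p = 0.0562) in DKO-moderate. The 2 estimates are nearly equal and fall on either side of the threshold. In DKO-severe the call was lost in 7 of 22 alternatives, among them leaving out WT 1 (log2 fold change 0.70), WT 2 (0.93), DKO-severe 1 (0.90), DKO-severe 2 (0.73), or the 3 libraries together (0.73, adjusted p = 0.107). In DKO-moderate it was gained in 7 of 22, among them leaving out WT 3 (1.17, adjusted p = 0.0361) or DKO-severe 2 (0.94, adjusted p = 0.0450), and DESeq2 (0.96, adjusted p = 0.0163).

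The ratio of *Il12rb2* to *Il12rb1* reads within a library was 0.168, 0.280, 0.359, and 0.207 in WT. It was 0.309, 0.202, 0.268, and 0.252 in DKO-moderate and 0.250, 0.305, 0.164, and 0.16 in DKO-severe. The groups overlapped, and the mean log2 ratio of DKO-severe differed from WT by -0.20 (exact two-sided permutation p = 0.57). These ratios of reads are not corrected for length. Per kilobase of exon, *Il12rb1* had 4.63 ± 1.22 CPM and *Il12rb2* 1.27 ± 0.487 CPM in WT (SD, n = 4), and 10.2 ± 0.721 and 2.42 ± 0.795 CPM in DKO-severe.

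*Il18rap* encodes the accessory chain without which IL-18 does not signal. WT libraries held 12.1, 18.1, 23.1, and 24.1 CPM, DKO-moderate libraries 44.0, 32.2, 33.9, and 33.5 CPM, and DKO-severe libraries 36.3, 43.9, 38.7, and 29.9 CPM. No DKO library fell as low as the highest WT library. Relative to WT the log2 fold change was 0.94 (SE 0.20, adjusted p = 0.00194) in DKO-severe and 0.89 (SE 0.20, adjusted p = 0.0102) in DKO-moderate, and the DKO groups differed by 0.05 with a 95% interval of -0.38 to 0.48. With terms for neutrophil and B cell genes in the fit, the change in DKO-severe was 0.98 but its adjusted p rose to 0.0663.

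*Il18r1*, whose product binds IL-18, was not past the threshold in any comparison. It was at 128.0, 107.6, 138.4, and 113.3 CPM in WT, 183.1, 70.5, 141.4, and 108.4 CPM in DKO-moderate, and 95.6, 109.5, 107.0, and 65.0 CPM in DKO-severe. The WT libraries lay within a 1.29-fold range and the DKO-moderate libraries spread over a 2.6-fold range around them. The log2 fold change to WT was -0.37 (SE 0.25, adjusted p = 0.222) in DKO-severe and 0.05 (SE 0.25, adjusted p = 0.916) in DKO-moderate, with a 95% interval of -0.49 to 0.58 for the latter. Between DKO-severe and DKO-moderate it was -0.42 (adjusted p = 0.236), and leaving out 1 library moved it from -0.18 (without DKO-moderate 1, adjusted p = 0.617) to -0.62 (without DKO-moderate 2, adjusted p = 0.0472).

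The ratio of *Il18r1* to *Il18rap* reads was 10.5, 5.94, 5.99, and 4.70 in the WT libraries. It was 4.16, 2.19, 4.17, and 3.23 in DKO-moderate and 2.63, 2.50, 2.76, and 2.17 in DKO-severe. Every DKO library was below every WT library, and the DKO-severe libraries were the most alike, with an SD of 0.15 on the log2 scale against 0.50 in WT and 0.44 in DKO-moderate. The mean log2 ratio was lower than in WT by 1.37 log2 units in DKO-severe and by 0.96 log2 units in DKO-moderate, each with an exact two-sided permutation p of 0.029, the smallest that 4 against 4 libraries can give. Over the 12 ratio tests the adjusted p was 0.11 for both, so neither passed the correction. Per kilobase of exon the WT level was 25.3 ± 2.91 CPM for *Il18r1* and 2.87 ± 0.813 CPM for *Il18rap* (SD, n = 4), and in DKO-severe 19.6 ± 4.24 and 5.51 ± 0.857 CPM.

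**Figure D2:**
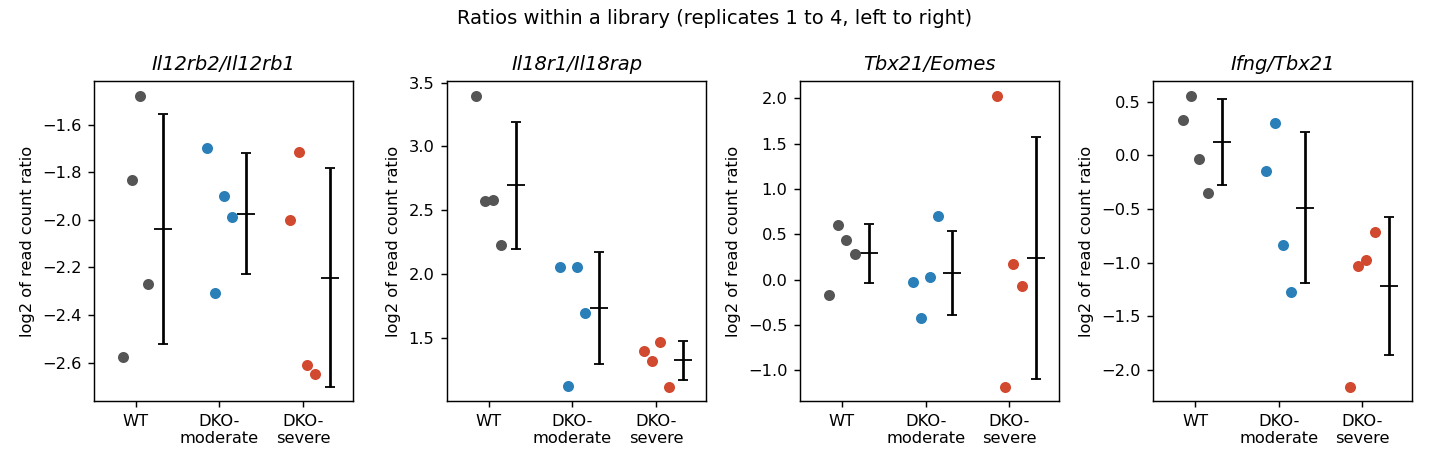
Log2 ratio of read counts within each library (0.5 added to each count) for *Il12rb2*/*Il12rb1*, *Il18r1*/*Il18rap*, *Tbx21*/*Eomes*, and *Ifng*/*Tbx21*, by group, with replicates 1 to 4 from left to right and the mean and SD of 4 libraries beside them. All DKO libraries fall below the WT libraries for *Il18r1*/*Il18rap*, and the DKO-severe libraries fall below them for *Ifng*/*Tbx21*.

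*Tbx21* showed no change past the threshold in any comparison. It was at 11.4, 20.04, 24.5, and 31.0 CPM in WT, 38.4, 19.8, 30.1, and 43.1 CPM in DKO-moderate, and 20.6, 43.9, 25.0, and 23.7 CPM in DKO-severe. The groups overlapped, and each spread over more than a 2.1-fold range. Against WT the log2 fold change was 0.38 (95% interval -0.33 to 1.09, adjusted p = 0.345) in DKO-severe and 0.59 (-0.12 to 1.30, adjusted p = 0.229) in DKO-moderate. Both intervals include 0 and a log2 fold change of 1. The change in DKO-severe was 0.11 without DKO-severe 2, 0.17 without WT 1, and 0.60 without WT 4, and that in DKO-moderate ranged from 0.38 to 0.82 over the libraries left out, with none past the threshold.

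*Eomes* varied most between libraries. It was at 12.8, 13.2, 18.1, and 25.4 CPM in WT and 39.2, 26.4, 29.3, and 26.5 CPM in DKO-moderate, without overlap. The DKO-severe libraries held 5.03, 99.4, 22.2, and 24.8 CPM, a 19.8-fold range that encloses both other groups. The log2 fold change to WT was 1.12 (SE 0.62, adjusted p = 0.148) in DKO-severe and 0.80 (SE 0.62, adjusted p = 0.398) in DKO-moderate. The DKO-severe value turned on 2 libraries: it was 0.03 (adjusted p = 0.961) without DKO-severe 2 and 1.49 (adjusted p = 0.0211) without DKO-severe 1. Fitted with WT alone, the DKO-moderate change was 0.80 with an adjusted p of 0.0390. DKO-severe 2, the library with 99.4 CPM, also held the most *Ccl3* (167.7 CPM), *Gzmb* (128.8 CPM), and *Prf1* (77.4 CPM), which are genes of cytotoxic cells. In this library *Cd8a* was at 7.002 CPM and *Cd8b1* at 6.15 CPM, and *Cd8b1* was higher in every WT library. DKO-severe 1 held the least *Eomes*, *Ifng*, and *Prf1* (5.78 CPM) of all libraries and the most *Ncr1*. What part cells other than CD4+ T cells have in these values was not tested.

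The ratio of *Tbx21* to *Eomes* reads was 0.891 to 1.52 in WT, 0.747 to 1.63 in DKO-moderate, and 0.441 to 4.08 in DKO-severe, with the lowest and the highest in DKO-severe 2 and DKO-severe 1. No comparison of this ratio was near the threshold (adjusted p of at least 0.73).

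*Hopx* was higher in DKO-moderate than in either other group. It was at 21.1, 27.9, 28.5, and 31.1 CPM in WT, 46.3, 32.3, 36.4, and 46.2 CPM in DKO-moderate, and 22.9, 33.1, 29.8, and 24.8 CPM in DKO-severe. The DKO-moderate libraries were all above WT, and the highest DKO-severe library overlapped the lowest DKO-moderate library. The log2 fold change was 0.57 (SE 0.16, adjusted p = 0.03) from WT to DKO-moderate, 0.03 (95% interval -0.32 to 0.38) from WT to DKO-severe, and -0.54 (SE 0.16, adjusted p = 0.0334) from DKO-moderate to DKO-severe. Both calls were fragile. The first was lost in 5 of 22 alternatives, on leaving out WT 1, WT 2, DKO-moderate 1, or DKO-moderate 4 (0.47 to 0.58) or with a replicate block, and the second in 12 of 22, among them leaving out any 1 of DKO-moderate 1, 3, or 4 or DKO-severe 1, 3, or 4 (-0.59 to -0.43), and with either other scaling.

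*Ifng* showed no change past the threshold in any comparison. It was at 14.4, 29.5, 23.9, and 24.4 CPM in WT, 34.8, 24.4, 16.8, and 17.9 CPM in DKO-moderate, and 4.61, 21.5, 12.7, and 14.5 CPM in DKO-severe. WT and DKO-moderate overlapped, and 2 DKO-severe libraries lay below all others. The log2 fold change to WT was -0.79 (95% interval -1.63 to 0.05, adjusted p = 0.104) in DKO-severe and 0.03 (-0.81 to 0.86, adjusted p = 0.976) in DKO-moderate, and between the DKO groups it was -0.82 (adjusted p = 0.146). The change from WT to DKO-severe was -1.09 (adjusted p = 0.0365) without DKO-severe 2, -0.51 (adjusted p = 0.186) without DKO-severe 1, and -0.06 (adjusted p = 0.9705) with terms for neutrophil and B cell genes. Per read of *Tbx21*, the libraries held 1.26, 1.47, 0.975, and 0.785 reads of *Ifng* in WT, 0.905, 1.23, 0.560, and 0.415 in DKO-moderate, and 0.225, 0.489, 0.509, and 0.611 in DKO-severe. Every DKO-severe library was below every WT library. The difference in mean log2 ratio was -1.34 (exact two-sided permutation p = 0.029, the smallest possible, and 0.11 adjusted over the 12 ratio tests).

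**Figure D3:**
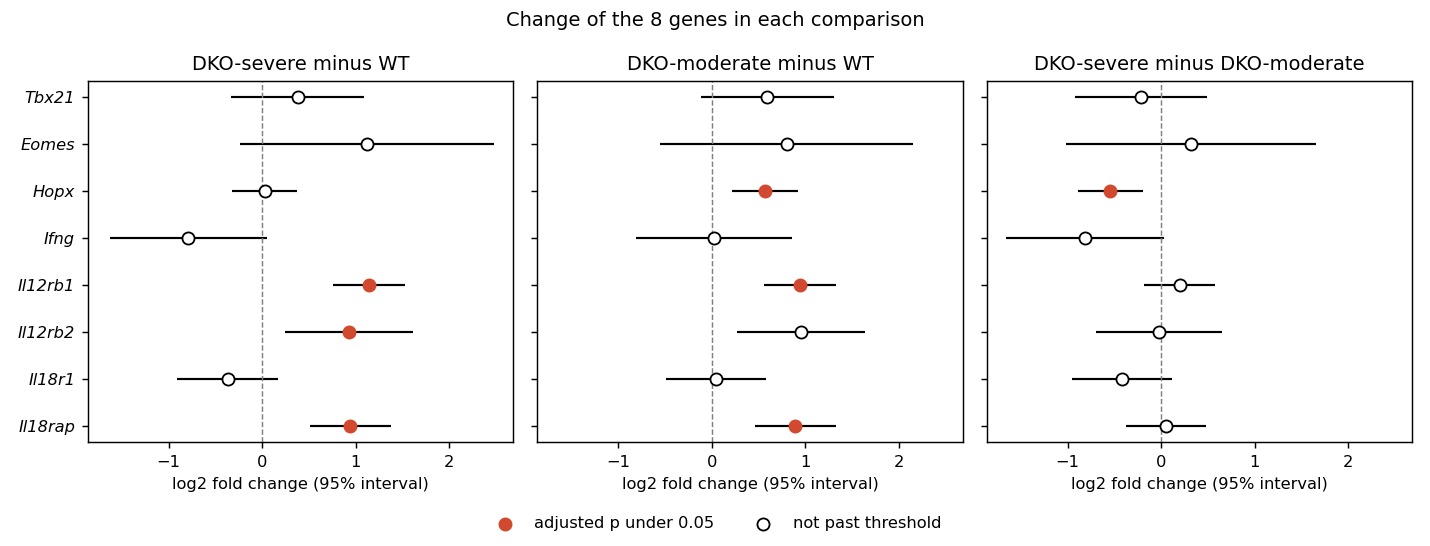
Log2 fold change with its 95% interval for the 8 genes, 1 panel a comparison; filled points are past the adjusted p threshold of 0.05 and open points are not. *Il12rb1* and *Il18rap* are filled in both comparisons with WT, *Il12rb2* in DKO-severe alone, and *Hopx* in DKO-moderate against WT and between the DKO groups.

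In DKO-moderate 5 of the 8 genes, *Eomes*, *Hopx*, *Il12rb1*, *Il12rb2*, and *Il18rap*, had every library above every WT library, where 14.6% of all tested genes did. In DKO-severe it was 2 of 8, *Il12rb1* and *Il18rap*, where 24.6% did. WT 1 had the lowest level among the WT libraries for 7 of the 8 genes and the lowest of all 12 for 5 of them. Without WT 1 the changes of *Il12rb1* were 1.02 in DKO-severe and 0.83 in DKO-moderate, and those of *Il18rap* 0.77 and 0.72, and all 4 stayed past the threshold.

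Genes that tracked each of the 8 over the 12 libraries were sought among 9988 others with a mean of at least 5 CPM, by the root mean square difference of log2 CPM after centring each gene. The closest match of all was *Cd44*, an adhesion receptor that is high on antigen-experienced T cells, to *Il18rap*, at 0.155 log2 units. *Nucb1* (0.163) and *Osbpl3* (0.166) lay closest to *Il12rb1*, and *Klrk1* (0.245), which encodes the activating receptor NKG2D, and *Coro2a* (0.247) to *Il12rb2*. *Sytl3* (0.233) and *Cxcr6* (0.255), a chemokine receptor, lay closest to *Tbx21*, and *Gzmk* (0.453), a granzyme gene, and *Ddx43* (0.483) to *Eomes*. *3110001I22Rik* (0.167) and *Tpst2* (0.180) matched *Il18r1*, *Clec2d* (0.178) and *Nop10* (0.180) matched *Hopx*, *Btbd11* (0.334) and *Abcb1a* (0.384) matched *Ifng*, and *Dleu2* (0.211) was second to *Cd44* for *Il18rap*. Between the 8 genes themselves the smallest difference was that of *Il12rb2* and *Il18rap* (0.251), followed by *Il12rb1* and *Il18rap* (0.258). All of these points share the same 12 libraries and their differences in cell composition.

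Genes upstream and downstream of the 8 were taken from 4 lists. Of 8 ligand genes, 6 were tested, since *Il12b* had 1 read in all 12 libraries and *Il23a* had 7. *Il18* and *Ebi3*, which encodes a subunit of IL-27 and IL-35, rose in DKO-severe. Of the 6 tested, 2 were thus higher in DKO-severe and 1 in DKO-moderate, where 26.6% and 12.3% of all genes were. These counts are near those shares and are not a result about ligand genes. *Il18* was between 0.144 and 1.26 CPM in WT and between 3.83 and 6.42 CPM in DKO-severe (log2 fold change 3.03, SE 0.58, adjusted p = 0.000997). *Ebi3* was between 1.03 and 2.10 CPM in WT, 4.02 and 4.21 CPM in DKO-moderate, and 2.82 and 8.47 CPM in DKO-severe, with log2 fold changes of 1.36 (adjusted p = 0.0156) and 1.65 (adjusted p = 0.00147). *Ebi3* was alone in its list in passing in DKO-moderate. *Il18bp*, whose product captures IL-18, had a log2 fold change of 0.23 (adjusted p = 0.487) in DKO-severe. With terms for neutrophil and B cell genes, *Ebi3* in DKO-severe changed by 0.42 (adjusted p = 0.552), and *Il18* by 2.93 (adjusted p = 0.0394). Without the 3 libraries richest in other cells they changed by 1.05 (adjusted p = 0.0219) and 3.61 (adjusted p = 0.00171). Plasma cell genes summed higher in every DKO-severe library than in any other. Monocyte genes were highest in DKO-severe 1 and 2, but WT 3 (167.8 CPM) was above DKO-severe 3 (64.7 CPM) and DKO-severe 4 (50.9 CPM). The part of both lists in these values was not tested.

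Of 12 signalling genes, 3 were higher and 5 lower in DKO-severe than in WT, and 3 were higher and 2 lower in DKO-moderate. Over all tested genes 26.6% were higher and 25.9% lower in DKO-severe, and 12.3% higher and 4.74% lower in DKO-moderate, so the share of the list that was higher in DKO-severe is near that of all genes. The kinase and transcription factor genes of the IL-12 receptor that rose were *Jak2* (0.53, SE 0.13, adjusted p = 0.00426) and *Stat4* (0.69, SE 0.12, adjusted p = 0.000674) in DKO-severe, with 0.54 (adjusted p = 0.0136) and 0.56 (adjusted p = 0.00991) in DKO-moderate. *Stat4* was between 116.5 and 159.6 CPM in WT and between 193.3 and 229.0 CPM in DKO-severe, while *Tyk2*, the other kinase of this receptor, changed by 0.02 (adjusted p = 0.890). *Irak4*, a kinase below the IL-18 receptor, was the third gene that rose, and *Myd88* and *Irak1* of the same chain were not past the threshold in either comparison with WT. The median log2 fold change of the list was -0.02 in DKO-severe and 0.13 in DKO-moderate. With terms for neutrophil and B cell genes, 1 signalling gene, *Stat4* (1.03, adjusted p = 0.00898), was higher and 2 were lower in DKO-severe.

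The 5 signalling genes that fell in DKO-severe included *Ifngr2* and *Jak1* of the interferon gamma pathway. *Jak2*, which serves this pathway as well as the IL-12 receptor, rose by 0.53. *Ifngr2*, the signalling chain of the interferon gamma receptor, was between 56.2 and 68.5 CPM in WT, 21.9 and 39.9 CPM in DKO-moderate, and 13.4 and 20.6 CPM in DKO-severe. None of the 3 groups overlapped, and the log2 fold change to WT was -1.01 (SE 0.18, adjusted p = 0.00311) in DKO-moderate and -1.92 (SE 0.19, adjusted p = 1.3e-05) in DKO-severe. *Ifngr1*, the ligand-binding chain, changed by -0.01 (adjusted p = 0.951) in DKO-severe. *Jak1*, the kinase on the ligand-binding chain, between 1261 and 1363 CPM in WT, was 793.6 to 851.4 CPM in DKO-severe (-0.65, adjusted p = 0.000949). *Traf6*, *Il27ra*, and the inhibitor gene *Socs1* were the others that fell in DKO-severe. With library size alone *Il27ra* (-0.21, adjusted p = 0.0996) and *Socs1* (-0.14, adjusted p = 0.332) were not past the threshold. *Traf6* had an adjusted p of 0.05025 without the 3 libraries richest in other cells. With terms for neutrophil and B cell genes, *Ifngr2* and *Il27ra* were still called lower, and *Jak1*, *Traf6*, and *Socs1* were not. *Ifngr2*, *Il27ra*, and *Socs1* were also lower when DKO-severe was compared with DKO-moderate, where 3 of the 12 genes passed and 10.7% of all genes were lower.

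Of 9 tested genes that interferon gamma is known to induce, 5 were lower in DKO-severe than in WT (*Irf1*, *Gbp4*, *Igtp*, *Irgm1*, and *Iigp1*), where 25.9% of all genes were lower. The same 5 were lower than in DKO-moderate, where 10.7% of all genes were lower. Against WT the count was 4 of 9 without DKO-severe 1, without DKO-severe 3, or with library size alone. *Gbp2* (-0.18, adjusted p = 0.517), *Cxcl10* (0.28, adjusted p = 0.606), *Cxcl9* (2.59, adjusted p = 0.058), and *Ciita* (1.32, adjusted p = 0.394) were not past the threshold against WT. In the edgeR fit of all 12 libraries no gene of the list was called higher, with an unadjusted p under 0.05 for 1 gene against WT, *Cxcl9*, and 1 against DKO-moderate, *Ciita*. Other settings called some higher than WT, among them DESeq2 (*Cxcl9*), edgeR with library size alone (*Cxcl9*, adjusted p = 0.0491), and edgeR without WT 3 (2 genes), and DESeq2 called *Ciita* higher than DKO-moderate. *Irf1*, a transcription factor, went from 361.0 to 397.2 CPM in WT to 152.1 to 196.7 CPM in DKO-severe (-1.11, SE 0.12, adjusted p = 2.7e-05). *Igtp*, an interferon-induced GTPase, was 204.0 to 223.9 CPM in WT, 140.0 to 225.2 CPM in DKO-moderate, and 71.1 to 113.3 CPM in DKO-severe, with a log2 fold change of -1.25 to WT (SE 0.16, adjusted p = 7.2e-05) and -1.12 to DKO-moderate (SE 0.16, adjusted p = 0.00304). *Gbp4* changed by -1.21, *Irgm1* by -1.01, and *Iigp1* by -0.87 against WT. None of the 5 overlapped between DKO-severe and either other group, and the share of all genes without such overlap is not given here. *Irf1* was the one gene of the list lower in DKO-moderate than in WT (-0.41, adjusted p = 0.0374), where 4.74% of all genes were lower. None was called on leaving out DKO-moderate 2, any 1 WT library, or the 3 libraries richest in other cells. The call was also lost with library size alone, only the groups compared, a replicate block, or terms for neutrophil and B cell or Y-linked genes. The median log2 fold change of the list was -0.87 in DKO-severe and -0.13 in DKO-moderate against WT. *Ciita*, which B cells and myeloid cells express, was at 14.9 CPM in WT 3 and 31.3 CPM in DKO-severe 2 against 0.316 to 7.46 CPM elsewhere. Without the 3 libraries richest in other cells, the same 5 genes were called against WT and against DKO-moderate, and with terms for neutrophil and B cell genes only *Irf1* was called against WT (-0.85, adjusted p = 0.0265) and none of the list between the DKO groups. In that fit *Igtp* was at -0.91 (adjusted p = 0.0523), *Irgm1* at -0.84 (adjusted p = 0.0603), *Gbp4* at -0.81 (adjusted p = 0.157), and *Iigp1* at -0.64 (adjusted p = 0.45) against WT, and the median of the list between the DKO groups was -0.62 against -0.70 without the terms.

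**Figure D4:**
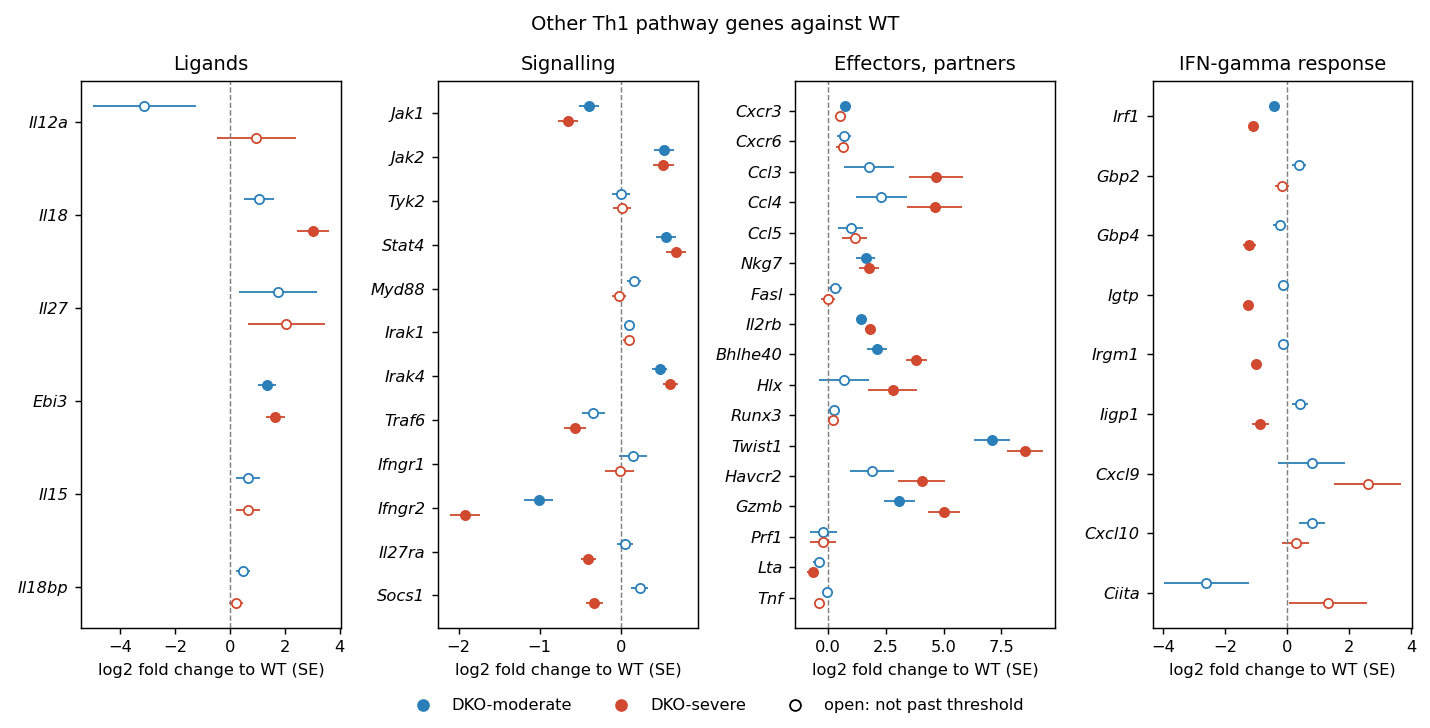
Log2 fold change to WT with its SE of the tested genes in 4 lists (ligands, signalling, effectors and T-bet partners, interferon gamma response), for DKO-moderate in blue and DKO-severe in red; open points are not past the threshold, and the horizontal scale differs between panels. *Stat4*, *Jak2*, and *Irak4* lie to the right of 0, *Ifngr2* and 5 response genes lie to the left in DKO-severe, and *Twist1* lies farthest right.

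Among 17 effector genes and partners of T-bet, 9 were higher and 1 lower in DKO-severe, and 6 were higher in DKO-moderate, where 26.6%, 25.9%, and 12.3% of all genes were. *Bhlhe40*, a transcription factor that represses *Il10* in Th1 cells, was 19.0 to 46.2 CPM in WT, 90.5 to 250.1 CPM in DKO-moderate, and 212.1 to 772.5 CPM in DKO-severe (log2 fold changes 2.13, adjusted p = 0.00543, and 3.82, adjusted p = 3.9e-05). *Il2rb*, the IL-2 and IL-15 receptor beta chain, was 130.7 to 297.9 CPM in WT, 562.5 to 627.6 CPM in DKO-moderate, and 740.6 to 817.7 CPM in DKO-severe (1.43 and 1.82). *Gzmb*, which encodes granzyme B, rose from at most 3.45 CPM in WT to 6.21 to 36.2 CPM in DKO-moderate and 25.0 to 128.8 CPM in DKO-severe (3.10, adjusted p = 0.00731, and 5.03, adjusted p = 0.000109). *Nkg7*, a cytotoxic granule gene, rose by 1.64 and 1.78. *Ccl3* in DKO-severe rose by 4.67 (adjusted p = 0.00553), with 167.7 CPM in DKO-severe 2 and 4.67 to 15.8 CPM in the other 3, and by 2.82 without the 3 libraries richest in other cells. *Lta*, lymphotoxin alpha, fell by 0.65 in DKO-severe (adjusted p = 0.0345). *Ccl4*, *Havcr2*, and *Hlx* were the others called higher in DKO-severe. *Ccl4* was at 137.8 CPM in DKO-severe 2 and 3.26 to 10.9 CPM in the other 3, which overlapped WT. *Havcr2* was at 41.9 CPM in DKO-severe 2 and 3.24 to 6.41 CPM in the other 3, all above WT. *Hlx* had 44, 34, 5, and 6 reads in DKO-severe 1 to 4 and 10 reads in WT 3. Without the 3 libraries richest in other cells, *Ccl4* and *Havcr2* were still called and *Hlx* was not (adjusted p = 0.129). *Cxcr3*, a chemokine receptor gene that T-bet induces, was higher in DKO-moderate (0.76, adjusted p = 0.0490) and had 0.54 (adjusted p = 0.0784) in DKO-severe. The median log2 fold change of the list was 1.78 in DKO-severe and 0.99 in DKO-moderate. With terms for neutrophil and B cell genes, 4 of the 17 were higher in DKO-severe, which were *Il2rb*, *Bhlhe40*, *Gzmb*, and *Twist1*, and 1 was lower, *Tnf* (-1.14, adjusted p = 0.013). *Tnf* was also lower without the 3 libraries (-0.81, adjusted p = 0.00505), and in the fit of all 12 libraries it was at -0.37 (adjusted p = 0.111). *Tnf*, *Prf1*, *Fasl*, *Runx3*, *Ccl5*, and *Cxcr6* were not past the threshold in either comparison with WT in that fit.

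*Twist1*, a basic helix-loop-helix gene that repeatedly stimulated Th1 cells turn on and that limits their inflammatory output, was picked for description after its values were seen. It had 0, 0, 3, and 1 reads in the WT libraries, 204, 260, 76, and 78 in DKO-moderate, and 422, 245, 476, and 635 in DKO-severe. No DKO library came near WT. Against the 4 WT reads in all, the summed level was 144.0 times as high in DKO-moderate (95% exact counting interval 55.9 to 529.0) and 413.0 times in DKO-severe (161.0 to 1520), and these intervals cover counting error only. With 4 WT reads, *Twist1* passed the filter of 10 reads through the DKO groups alone, which fixed its direction against WT. The adjusted p against WT in edgeR was 0.000237 in DKO-moderate and 1.1e-05 in DKO-severe, and is not offered as support. Between the DKO groups the adjusted p was 0.0662.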

How the data were processed

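RNA of CD4+ YFP(FOXP3)- T cells was sequenced in 4 mice of each group (WT, DKO-moderate, DKO-severe) at 14 weeks. The authors isolated total RNA, prepared directional libraries, aligned reads to mm10 with STAR 2.7.11 keeping reads with a single position, counted them by gene with htseq-count set to reverse strand, and deposited raw counts per gene. The annotation they used is not given in the sources used here. Records not assigned to a gene were 18.53% to 23.73% of a library and were left out. No library was a copy of another of its group.

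Genes were tested where the summed reads of at least 1 group reached 10, 16035 of 26608, with edgeR 4.0.16 (TMM scaling, quasi-likelihood test, 1 fit of the 3 groups) in R 4.3.3, and p-values were adjusted by Benjamini-Hochberg over all tested genes (threshold 0.05). The SE is the log2 fold change divided by the square root of F. Log2 CPM used a prior count of 2. The 12 tests of log2 ratios (0.5 added to each count) were exact two-sided permutation tests with their own adjustment. The edgeR test of DKO-severe against WT was checked on simulated counts with far fewer changed genes than were called here. The permutation test was checked only on a small set of made-up values. Alternatives were DESeq2 1.42.0, which the authors used, other scalings and filters, a fit of only the groups compared, a replicate block, terms for neutrophil and B cell or Y-linked genes, and leaving out each library. Leaving out 3 libraries together was chosen after seeing the data. Values named are those of the 8 genes, of up to 6 genes of each other list that passed in DKO-severe against WT with the highest mean CPM, of the 2 nearest genes of each of the 8, and of *Foxp3*, *Tet2*, and *Tet3*, and any other gene with values was picked after they were seen. The 8 genes and the lists were chosen with earlier results of these data known. Python 3.11.15 was used for tables (pandas 2.3.3), exact tests (scipy 1.17.1, numpy 2.4.6), motif searches, and figures (matplotlib 3.10.9). Each library is 1 mouse. Single-cell, methylation, and flow cytometry data were not analysed here, and results that rest on some genes are not reported here.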

Additional observations from a re-analysis of the deposited data

Results flagged for a closer look

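DKO-moderate 1 held 44.0 CPM of *Il18rap* against 32.2, 33.9, and 33.5 CPM in the other DKO-moderate libraries, a gap of 0.856 of the group's range, above Dixon's limit for 4 values. It was the 1 value so marked among 36 sets of 4 libraries (8 genes and 4 ratios in 3 groups), where chance marks about 1 in 20. This library also had the highest *Hopx*, *Eomes*, *Ifng*, and *Il18r1* of its group. Without it the log2 fold change of *Il18rap* in DKO-moderate against WT remained past the threshold.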

How the results depend on the processing

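Of the 24 results for single genes (8 genes in 3 comparisons), 9 kept their direction and side of the threshold in all 22 alternatives, among them *Il12rb1* in all 3 comparisons. The causes of the changes below were not tested. Scaling by library size alone moved the median of all genes in DKO-severe against WT from -0.00539 to 0.178, and genes higher went from 4270 of 8428 called to 5460 of 8216. Between the DKO groups they went from 1509 of 3217 to 1823 of 3060 with DESeq2's size factors and 1886 of 2907 with library size, and DESeq2 called 4169, of which 2497 were higher. The summed neutrophil genes were higher in every DKO-severe library than in any other, so a term for them overlaps with that group. With terms for neutrophil and B cell genes, calls fell to 2683 genes and 1 of the 8 in DKO-severe against WT, with 10 of the other Th1 pathway genes against 25, and to 60 genes, 0 of the 8, and 0 pathway genes between the DKO groups. There, 0 of the 8 were called also with DESeq2's size factors, library size alone, only the groups compared, the replicate block, and without the 3 libraries richest in other cells (2055 genes called). Leaving out each library gave 1616 (without WT 1) to 2920 genes in DKO-moderate against WT, with 2 to 4 of the 8 and 8 to 13 pathway genes, and 1646 (without DKO-moderate 1) to 3670 genes between the DKO groups, with 0 to 2 of the 8. In DKO-severe against WT it gave 7253 to 9006 genes, 2 to 3 of the 8, and 22 to 27 pathway genes.

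Replicate numbers did not pair the libraries: correlations of residuals between same-numbered libraries had a median of -0.0507, 3 of 12 over 0.1, against -0.00868 for other numbers, 15 of 36 over 0.1. With the replicate block, 7794, 2201, and 2321 genes and 2, 2, and 0 of the 8 were called in the 3 comparisons.

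Directions of changes that were not called turned in these cases. Between the DKO groups, *Il12rb2* became 0.0541 with DESeq2, 0.0545 with its size factors, 0.0854 with library size, and 0.0286 with a minimum of 10 reads in each library of some group, *Eomes* -0.1575 with the replicate block and -0.366 without the 3 libraries, and *Il18rap* -0.0639 without them. Over the libraries left out, *Il12rb2* ranged from -0.2122 to 0.1623, *Eomes* from -0.7639 to 0.684, and *Il18rap* from -0.0012 to 0.1856. *Hopx* in DKO-severe against WT ranged from -0.0773 to 0.1095, and in DKO-moderate against WT *Il18r1* from -0.1893 to 0.2448 and *Ifng* from -0.2256 to 0.1671. Among log2 ratios, *Il12rb2*/*Il12rb1* in DKO-moderate against WT ranged from -0.1127 to 0.2541, and *Tbx21*/*Eomes* from -0.6485 to 0.4211 in DKO-severe against WT and from -0.432 to 0.6376 between the DKO groups. A pseudocount of 2 turned no ratio and moved none past the threshold. The lowest count of the 8 genes was 82 reads in a library, and counting error and the spread between mice were not separated.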
